A study of Mus musculus with 12 samples.

Results

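In mouse cells mapped by ATAC-seq, 1274 regions of open chromatin were called in at least 5 of the 7 libraries that carry EF in their genotype label and in 0 of the 5 wild-type libraries. They were chosen from 153346 regions, made by merging the overlapping peaks (1 bp or more) of all 12 libraries on chromosomes 1 to 19 and X, so that 0.831% of all regions are members. Because the calls themselves made the choice, calls and heights of the members are given as a description, with no test. ATAC-seq uses a transposase that inserts sequencing adapters where DNA is accessible, and a peak is a stretch where the authors' caller found more reads than the local background.

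EWS::FLI1 is the fusion of an RNA-binding protein with an ETS transcription factor that drives most Ewing sarcomas. It binds ETS motifs of the core GGAA, and in human tumour cells it also opens chromatin at tandem repeats of GGAA, which then act as enhancers of distant genes. YAP1 is the co-activator at the end of the Hippo pathway and works through TEAD factors, and IGF-1 is a growth factor of mesenchymal and Ewing sarcoma cells. The series title names all of them together with bone mesenchymal stem cells.

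The 7 EF-carrying libraries belong to the groups EF (n = 4), EF_IGF1 (n = 2) and EF_IGF1_xeno (n = 1), and all came from lines titled S_220 or S_221. The 5 wild-type libraries belong to the groups Wt (n = 4, lines WT_1, WT_2, BM and S_203) and Wt_IGF1 (n = 1, line BM). The source is labelled MSCLCs in every library, and the design text adds the name EFPrx1 for the EF-carrying cells. The sources used here do not say what these abbreviations and xeno stand for, how EF is expressed, the dose and time of IGF-1 or the age of the animals. Flowcell BSF_0654 held replicates 1 and 2 of EF and of Wt, and flowcell BSF_1013 held the rest. The labels name no animals, so p-values measure only the spread between these libraries.

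Peaks used ran from 7723 (Wt replicate 1) to 83679 (Wt_IGF1) per library, and from 27309 (EF replicate 2) to 67306 (EF replicate 4) in the EF-carrying libraries. The files hold no read totals, so the depth is unknown. EF replicates 1 to 3 stood apart, with 580 to 822 of the members called, where the other 4 EF-carrying libraries called 1170 to 1241. Of all regions EF replicates 1 to 3 called 32.5%, 16.7% and 32.9%. EF replicate 4, EF_IGF1 replicates 1 and 2 and EF_IGF1_xeno called 42.4%, 36.8%, 39.5% and 26.7% of them. Peaks within 1 kb of either end of Thy1, Pdgfrb, Cd44 and Twist1, markers of mesenchymal cells, were called in 6, 7, 7 and 7 EF-carrying and in 3, 3, 4 and 4 wild-type libraries. Those of Nt5e and Ly6a were called in 5 and 5 EF-carrying and in 4 and 3 wild-type libraries, Eng had them in 0 and 1, and Prrx1 and Pdgfra had none in any library. Regions of the whole mesenchymal list of 26 genes were called at 15.7% to 44.6% in the EF-carrying libraries and at 0.811% (Wt replicate 1) to 47.3% in the wild-type libraries. All regions were called at 16.7% to 42.4% and at 4.87% to 51.9%. In the EF-carrying libraries the endothelial, muscle, epithelial and neural lists stood at 13.2% to 46.0%, 11.3% to 47.4%, 14.9% to 46.5% and 9.84% to 33.6%. The smooth muscle and pericyte list stood at 14.5% to 63.8%. These shares thus do not set the mesenchymal list apart. Regions of the blood marker list were called at 12.4% to 30.3% in the EF-carrying libraries and at 7.03%, 68.6%, 33.5% and 34.6% in Wt replicates 1 to 4 and 41.6% in Wt_IGF1. Of its 185 regions 0 were members, beside 0.831% of all regions, and the rule drops any region with a wild-type call. In bulk libraries, fewer cells with an open region and less opening per cell cannot be told apart.

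At 26 members the summit, the base with most reads, fell in the window from 250 bases before to 50 bases after a gene start in the RefSeq promoter table (GRCm38.p6). These are 2.70% of the 963 members whose nearest protein-coding gene is in that table, beside 6.75% of all regions and 23.0% of the regions called in at least 5 EF-carrying and 1 or more wild-type libraries. The 250 bases before the start are shown for 8 of them, as the members for which a sequence can be read. They comprise the starts with calls in all 7 libraries at named genes, the near-identical pair Gm14139 and Gm14124, and starts that hold AP-1 or ETS letters. Capitals mark TGANTCA (the AP-1 motif), TGTGGT (RUNX), CGGAAG (ETS) and 2 or more GGAA in tandem, on either strand, and the letters run 5′ to 3′ on the strand of the gene.
Mad1l1: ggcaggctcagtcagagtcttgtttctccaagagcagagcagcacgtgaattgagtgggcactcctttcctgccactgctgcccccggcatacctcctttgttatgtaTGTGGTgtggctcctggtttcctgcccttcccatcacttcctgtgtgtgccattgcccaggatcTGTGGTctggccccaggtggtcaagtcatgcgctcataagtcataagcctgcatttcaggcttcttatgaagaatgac
Egfros: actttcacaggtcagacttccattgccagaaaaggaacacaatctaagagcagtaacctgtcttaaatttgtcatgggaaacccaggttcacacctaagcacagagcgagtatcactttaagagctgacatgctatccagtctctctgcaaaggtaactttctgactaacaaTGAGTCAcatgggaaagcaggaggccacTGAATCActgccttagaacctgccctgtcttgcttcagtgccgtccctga
Gm14139: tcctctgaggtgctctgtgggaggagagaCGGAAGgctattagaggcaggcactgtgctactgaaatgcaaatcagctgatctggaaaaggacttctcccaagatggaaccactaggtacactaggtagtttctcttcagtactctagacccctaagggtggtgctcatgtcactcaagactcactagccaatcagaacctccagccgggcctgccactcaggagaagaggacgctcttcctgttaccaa
Gm14124: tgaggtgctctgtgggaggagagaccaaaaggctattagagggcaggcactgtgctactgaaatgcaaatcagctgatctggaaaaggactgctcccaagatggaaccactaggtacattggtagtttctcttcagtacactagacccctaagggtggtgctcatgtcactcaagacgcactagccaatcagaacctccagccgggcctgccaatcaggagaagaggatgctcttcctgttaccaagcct
Cyp3a13: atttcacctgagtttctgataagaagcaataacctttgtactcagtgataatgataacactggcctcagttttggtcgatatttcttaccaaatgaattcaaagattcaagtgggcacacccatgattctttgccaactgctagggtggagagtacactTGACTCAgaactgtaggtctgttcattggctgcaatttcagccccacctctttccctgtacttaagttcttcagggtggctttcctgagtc
Rhox5: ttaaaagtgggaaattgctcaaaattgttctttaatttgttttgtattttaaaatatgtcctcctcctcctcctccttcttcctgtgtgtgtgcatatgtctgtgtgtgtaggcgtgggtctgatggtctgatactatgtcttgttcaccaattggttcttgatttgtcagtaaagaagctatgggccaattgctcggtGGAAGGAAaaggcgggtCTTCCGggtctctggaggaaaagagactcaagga
Guca2a: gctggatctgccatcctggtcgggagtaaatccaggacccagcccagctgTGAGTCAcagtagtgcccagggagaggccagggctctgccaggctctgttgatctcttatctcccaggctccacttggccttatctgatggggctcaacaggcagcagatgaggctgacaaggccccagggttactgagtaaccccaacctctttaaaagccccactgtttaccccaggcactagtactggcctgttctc
9530034E10Rik: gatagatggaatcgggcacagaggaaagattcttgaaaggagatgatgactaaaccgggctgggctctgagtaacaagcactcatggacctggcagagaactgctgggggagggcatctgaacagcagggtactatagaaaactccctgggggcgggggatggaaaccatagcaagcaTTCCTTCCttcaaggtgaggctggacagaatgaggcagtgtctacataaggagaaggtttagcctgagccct
In the order printed they lie, strand in brackets, at chr5:140174919-140175168 (-), chr11:16830679-16830928 (-), chr2:150181505-150181754 (+), chr2:150257267-150257516 (+), chr5:137921620-137921869 (-), chrX:37754358-37754607 (+), chr4:119637482-119637731 (+) and chr4:117974784-117975033 (+).

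The 26 summits fell in 28 such windows, 16 of protein-coding genes and 12 of lncRNA genes. TGANTCA was found in 7 of the 28 windows (25%), beside 7.85% of all 32619 windows of the table and 5.81% of the 7042 windows that hold a summit shared with wild-type. Both starts of Egfros are among the 7, as are those of Gm33323 and Gm33398. Each of these pairs shares a summit, so the 7 windows stand at fewer than 7 members. TGTGGT was found in 9 windows (32.1%, beside 16.6% and 11.6%), and the TEAD motif CATTCC in 4 (14.3%, beside 14.6% and 11.3%). CGGAAG was found in 3 windows (10.7%, beside 17% and 38.4%), those of Gm14139, Gm35588 and Rhox5. GGAA in tandem was found in 2 windows (7.14%, beside 3.69% and 3.27%), those of Rhox5 and 9530034E10Rik, and 3 or more tandem copies in 0. Both strands were searched, windows of overlapping starts were counted separately, and the letters of a motif could overlap those of another. The median GC content of the 28 windows was 49.7%, beside 53.0% in all windows and 62.3% in the windows shared with wild-type. These are counts over few windows and describe letters, not bound factors.

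Of the promoter members, those at Mad1l1, Egfros and Gm7967 were called in all 7 libraries. Folds come from lists made library by library and are not scaled between them, so those set side by side here describe each list. Mad1l1 encodes a protein of the spindle checkpoint, and its summit lay 58 bases before a start. The fold over local background there was 9.06, 13.8, 9.67 and 10.7 in EF replicates 1 to 4, 14.5 and 14.6 in EF_IGF1 and 15.7 in EF_IGF1_xeno. The lowest values were those of EF replicates 1 and 3, both titled S_220, but EF_IGF1 replicate 1, of the same title, stood at 14.5. At Egfros, a lncRNA gene, the fold ran from 6.18 (EF replicate 2) to 15.3 (EF replicate 4). At Gm7967, a second lncRNA gene (chr1:98589224-98590550), it ran from 6.64 (EF replicate 2) to 11.2 (EF_IGF1_xeno). The starts of Gm14139 and Gm14124 were 92.8% identical over their 300-base windows and were both called in 6 libraries, all but EF replicate 1. Their folds ran from 12.3 to 19.1 and from 9.60 to 17.9. Reads of such near-identical copies can be split or misplaced, so these members are uncertain. Cyp3a13, a drug-metabolising cytochrome P450, and Rhox5, a reproductive homeobox gene of the X chromosome, were called in 5 libraries each, with folds from 9.78 to 15.4 and from 7.23 to 16.8. Both were missing in EF replicates 1 and 3. A single member overlapped a miRNA hairpin of the 1005 searched, that of Mir6387 (chr12:15800862-15801387, called in 6 libraries, fold 6.41 to 18.2).

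How far the members were shared differed between the EF-carrying libraries. All 7 libraries called 84 members (6.59%), 340 were called in 6 and 850 in exactly 5. EF replicate 4, the EF_IGF1 replicates and EF_IGF1_xeno called 1235, 1241, 1207 and 1170 members, whereas EF replicates 1, 2 and 3 called 822, 580 and 623. In the same order, these libraries called 42.4%, 36.8%, 39.5% and 26.7%, and 32.5%, 16.7% and 32.9%, of all regions. The first 4 of these libraries called 1048 members (82.3%) together, so most of the set rests on calls they share. The commonest gap was EF replicates 1 and 3 together, the untreated S_220 libraries, which were both missing at 315 members (24.7%). EF_IGF1 replicate 1 also carries the title S_220, and yet called 97.4% of the members. Whether that title is right cannot be told from the files, and every value by line rests on it. Without that library, with 4 of the other 6 required, 1468 regions were found, of which 1273 overlapped a member. A member with at least 5 of 7 calls keeps at least 4 in any 6 libraries. This overlap was thus nearly fixed in advance and does not show that the set is independent of that library. The EF group, taken alone, called 815 ± 299 members (SD, n = 4).

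**Figure D1:**
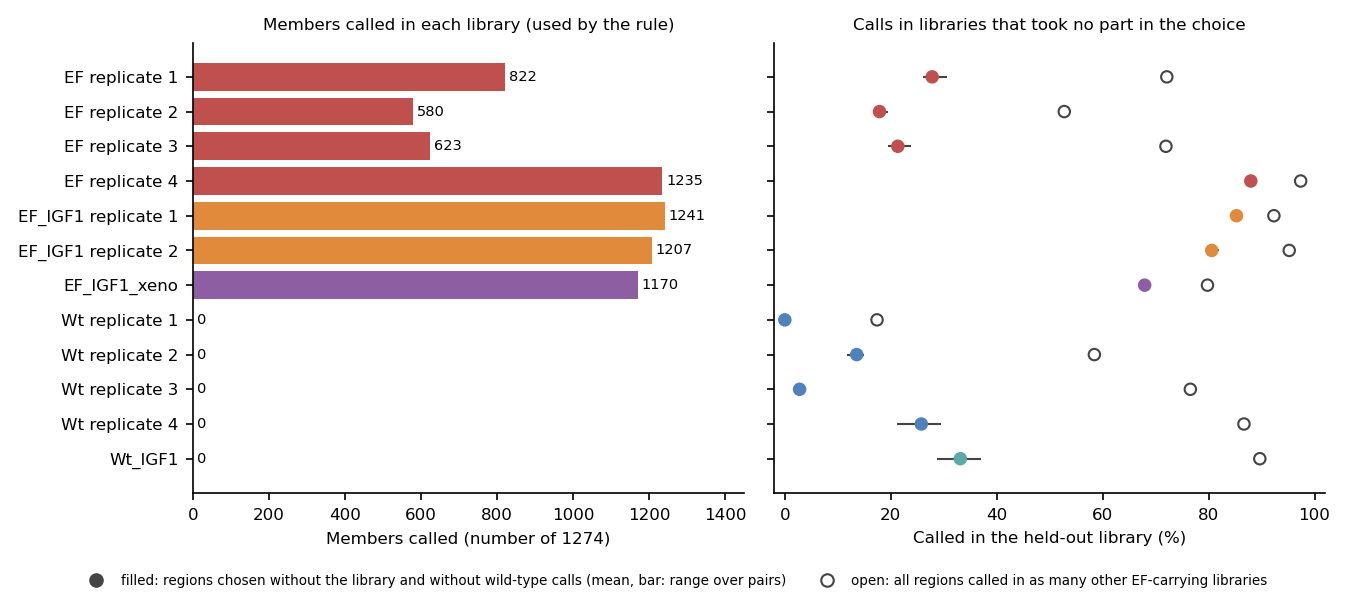
Left, the number of the 1274 members called in each library (bars), where EF replicate 4, EF_IGF1 and EF_IGF1_xeno stand at 1170 or more and EF replicates 1 to 3 between 580 and 822. Right, the percent of regions called in a library that took no part in choosing them (filled points, mean with the range over pairs of left-out libraries), beside all regions called in as many of the other EF-carrying libraries (open points).

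The calls were also read in libraries that took no part in the choice. For each of the 35 pairs of an EF-carrying and a wild-type library, regions were chosen on the other 10 libraries with the same number of missing calls allowed (called in at least 4 of 6 and in 0 of 4), which gave 1412 to 4812 regions. EF replicate 4 then called 88.0% of them on average, EF_IGF1 replicates 1 and 2 called 85.3% and 80.6%, and EF_IGF1_xeno 67.9%. EF replicates 1, 3 and 2 called 27.8%, 21.3% and 17.9%. Their sets held 3142 to 4812 regions, and those of EF replicate 4, EF_IGF1 and EF_IGF1_xeno 1412 to 2711. These last 4 libraries can meet 4 of 6 alone only when EF replicate 1, 2 or 3 is left out. The shares are thus read on unlike sets, and part of the gap is set by the choice. The left-out wild-type libraries called 33.1% (Wt_IGF1), 25.8% (Wt replicate 4), 13.6% (Wt replicate 2) and 2.79% (Wt replicate 3), and Wt replicate 1 called 0 of the 1412 to 3402 regions of its pairs. The EF-carrying library was the higher of the pair in 32 of 35 pairs, or in 25 of 28 without the pairs of Wt replicate 1, and the exceptions were EF replicate 2 with Wt replicate 4 and with Wt_IGF1, and EF replicate 3 with Wt_IGF1. The ranges of EF replicates 1 to 3 overlapped that of Wt replicate 4 or lay below it. Pairs share libraries, so the values carry no p. Each left-out EF-carrying library shared its line title with libraries that made the choice. Wt replicate 3 and Wt_IGF1 share the line BM, and each took part in the choice when the other was left out. The left-out calls are thus not independent of the choice. For all regions called in at least 4 of the other 6 EF-carrying libraries, whatever the wild-type calls, the shares were 52.8% to 72.1% in EF replicates 1 to 3, 79.8% to 97.4% in the other 4 and 17.4% (Wt replicate 1) to 89.7% (Wt_IGF1) in the wild-type libraries. The share of the chosen regions was thus 38.6%, 33.9% and 29.6% of this background share in EF replicates 1 to 3, 84.6% to 92.4% of it in the other EF-carrying libraries, and 36.9% of it in Wt_IGF1 and 29.7% in Wt replicate 4. EF replicates 1 and 3 called 32.5% and 32.9% of all regions, more than of the chosen ones, and EF replicate 2 called 16.7% of all. As a percent of the background share, both Wt_IGF1 and Wt replicate 4 lay within the range of EF replicates 1 to 3.

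Regions just outside the rule resembled those just inside it in height. There were 2304 regions with calls in 4 of 7 and in 0 wild-type libraries, with a median fold of 6.57, beside 7.08 for the 850 members with exactly 5 calls and 8.82 for the 84 with 7. A further 1513 regions had at least 5 calls and 1 wild-type call, with a median fold of 7.24. That call came from Wt_IGF1 at 738 of them, from Wt replicate 4 at 520, Wt replicate 2 at 216, Wt replicate 3 at 39 and Wt replicate 1 at 0. The rule turned round (at least 4 of 5 wild-type and 0 of 7 EF-carrying libraries) gave 1011 regions, 0.659% of all.

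The members were peaks of middle height. Their median fold was between 6.54 (EF replicate 3) and 8.82 (EF_IGF1 replicate 1), where the median over all peaks of these libraries was between 7.14 and 7.71. The median member ranked above 36.1% (EF replicate 2) to 56.3% (EF replicate 4) of the peaks of its library by −log10 p. Reads at the summit, solved from the deposited fold and p-value, had a median of 14 in EF replicate 2 and of 37 in EF_IGF1 replicate 1. At equal height over genome background, 99.9% to 100% of the members would have stood above the lowest peak called in each wild-type library. That limit is a single peak, and members are called peaks by choice, so a share near 100% says little about the absent calls. Scaled instead by the reads at the 5784 regions called in all 12 libraries, 25.1% would have stood above that limit in Wt replicate 1 and at least 98.6% in the other 4 wild-type libraries. Under that scaling most members would not have been detectable in Wt replicate 1, which had the fewest peaks. With the 5th percentile of called heights as the limit as well, the shares were 9.97% in Wt replicate 1 and 73.0% in Wt replicate 3. They were 98.4% to 99.0% in the others.

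Among the 84 members called in all 7 libraries, 37 lay inside a protein-coding gene and 13 lay over 100 kb from any. The 15 with the highest lowest fold are described next, each with its nearest gene within 100 kb. The first was 27037 bp from Vdac1, which encodes a channel of the outer mitochondrial membrane (chr11:52333377-52334151). The folds there were 13.7, 10.5, 12.5 and 11.3 in EF replicates 1 to 4, 13.7 and 13.5 in EF_IGF1 and 14.8 in EF_IGF1_xeno, on 23 to 136 reads. Next came a member inside Crybg1 (chr10:44094514-44095229), a gene of a crystallin-domain protein described in melanoma, with a lowest fold of 10.5 and a highest of 16.5. The groups overlapped at Vdac1, while at this Crybg1 member both EF_IGF1 libraries (15.8 and 16.5) stood above the 4 EF libraries (10.5 to 12.8) and EF_IGF1_xeno (12.9).

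Others of the 15 lay inside or near genes of varied roles. A member inside Ago3, an Argonaute gene of small RNA silencing, had folds from 8.91 (EF replicate 3) to 19.4 (EF_IGF1 replicate 1). One inside Cdcp3 ran from 9.68 (EF replicate 2) to 18.8 (EF_IGF1 replicate 2). Klf5, a Krüppel-like factor of adipogenic and epithelial differentiation, had a member at 11326 bp with folds from 8.24 to 15.8. Gprc5a, an orphan receptor gene, had one at 16456 bp with folds from 8.24 to 16.2, and the kinase gene Cdkl4 one at 17495 bp from 8.64 to 12.7. The member near Ndfip2, an adaptor of NEDD4 ubiquitin ligases, had the narrowest range of the 15, from 7.94 (EF_IGF1_xeno) to 10.4 (EF_IGF1 replicate 1). Members near Vmn1r60 and Vmn1r61, vomeronasal receptor genes of a large family, had folds from 8.82 to 18.2 and from 9.28 to 17.8. Members near copies of a family can share reads, so both are uncertain. A further 3 of the 15 had no protein-coding gene within 100 kb, at 161050 bp from Grxcr1, 688283 bp from Gm4868 and 1645193 bp from Cntnap5a, and the last of them reached a fold of 19.4. The remaining 2 were those of Mad1l1 and 2310061N02Rik.

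**Figure D2:**
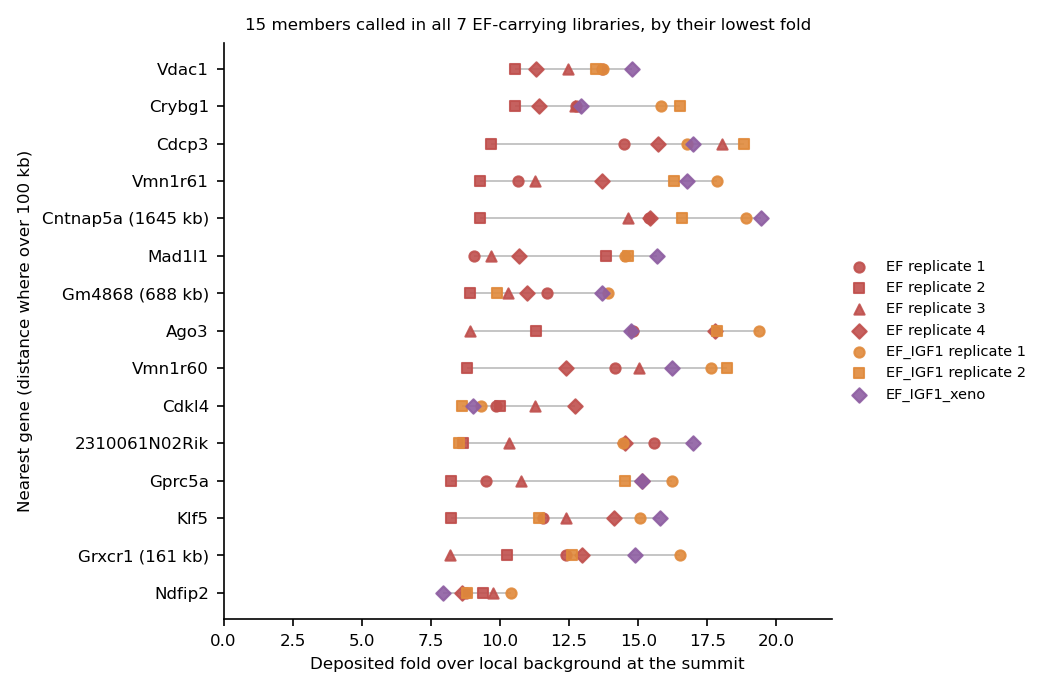
Deposited fold over local background (x axis, from 0) at the 15 members called in all 7 EF-carrying libraries with the highest lowest fold, 1 row a member named by its nearest gene, 1 point a library and a line from lowest to highest. EF replicate 2 gave the lowest point at most members, and the lowest fold of the 15 members was at least 7.94.

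A smaller share of the members than of all regions lay near a gene end. The rule drops every region with a wild-type call, and regions shared with wild-type lay near gene ends most often. Within 1 kb of either end of a protein-coding gene lay 63 members, 4.95% (95% exact Clopper-Pearson interval 3.82% to 6.28%), beside 10.8% of all regions and 29.2% of the regions called in at least 5 EF-carrying and 1 or more wild-type libraries. The wild-type regions of the turned-round rule stood at 13.8%. Inside a gene lay 573 members (45.0%, interval 42.2% to 47.8%), beside 52.1%, 53.8% and 58.9%. Over 100 kb from any gene lay 168 members (13.2%), beside 11%, 5.50% and 6.33%. Regions are not replicates, and the intervals cover counting error only. When the rule was applied to the top 20000 peaks of each list instead, it gave 1291 regions, 127 of which overlapped a member. Of those 1291 regions 15.3% lay near a gene end, and the share over all 53059 regions of that setting was not counted. The median distance from a summit to a gene start, over the members whose nearest gene has a start in the table, was 31154 bp, beside 28127 bp over all regions, 11476.5 bp over those shared with wild-type and 21580 bp over the wild-type regions. Members were a median of 559 bp wide, beside 412 bp for all regions and 794 bp for those shared with wild-type.

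**Figure D3:**
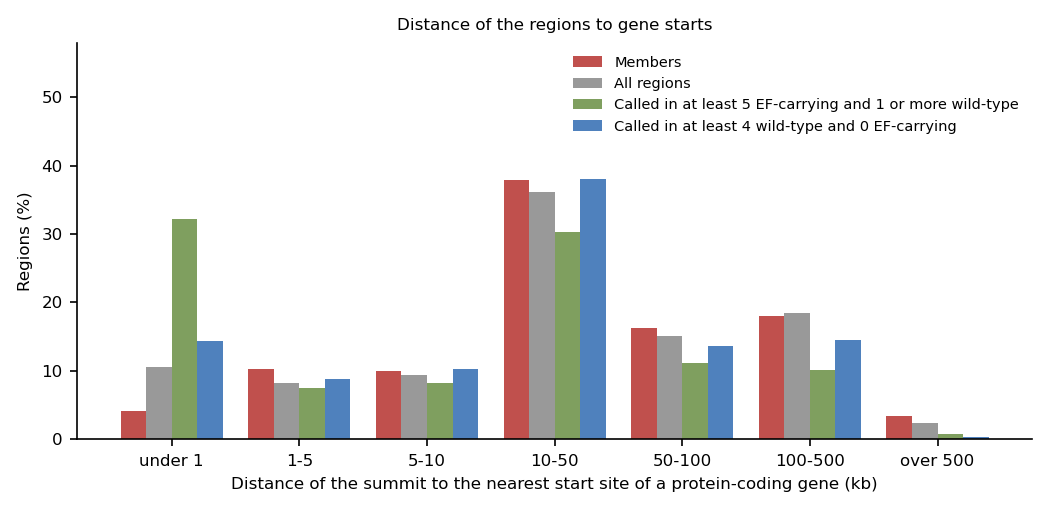
Percent of regions (y axis, from 0) by the distance of the summit to the nearest start of a protein-coding gene (x axis, kb), for the members, all regions, regions called in at least 5 EF-carrying and 1 or more wild-type libraries, and regions called in at least 4 wild-type and 0 EF-carrying libraries. Under 1 kb the members stand at 4.15%, beside 10.6%, 32.1% and 14.4%.

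Taking the nearest protein-coding gene within 100 kb, 969 genes had a member, 857 of them a single one, beside 17803 genes with a region. Of 1274 members 1051 (82.5%) had no other member within 50 kb, and 16 groups of 3 or more stood closer together. The spacing was not counted for other sets of regions of this size, so these counts are a description only. Crybg1 had most, 6 members of its 34 regions. They were called in 5 to 7 libraries. Besides the member given above, the one at chr10:44111884-44112438 was called in all 7 libraries, with folds of 8.74, 7.07, 5.16 and 18.5 in EF replicates 1 to 4, 20.3 and 12.1 in EF_IGF1 and 15.6 in EF_IGF1_xeno. EF replicate 4 was there above the other EF libraries, beside the EF_IGF1 and xeno values.

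Ptprt, a receptor tyrosine phosphatase gene, had 5 members of its 41 regions, all called in exactly 5 libraries and none in EF replicate 1. The one at chr2:162282480-162283409 had the highest −log10 p of any member at the 12 genes with most members (135). Its folds were 7.50 in EF replicate 2, 16.7 in EF replicate 4, 16.3 and 16.4 in EF_IGF1 and 15.4 in EF_IGF1_xeno, with no call in EF replicates 1 and 3. Bcar3, an adaptor of Src and p130Cas signalling at adhesions, had 4 of 35, and 2 of them were called in all 7 libraries with folds from 5.72 to 7.57 and from 5.51 to 7.77. Another of the 4 (chr3:122391669-122392148) lay 27784 bp outside Bcar3, with its summit 23 bases after a start of the lncRNA gene Gm4610. Cobl, an actin nucleator, had 3 of 42. Its member at chr11:12434615-12435508 was called in 6 libraries, all but EF replicate 2, with folds from 12.0 to 14.6.

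Several of the other genes with 3 members encode developmental or signalling factors. Eya1, a transcriptional co-activator of organ development, had 3 of 12 regions, and the strongest (chr1:14273697-14274361) was called in all but EF replicate 3, with folds from 9.09 to 16.6. Pax8, a paired-box factor of thyroid and kidney, had 3 of 19 with folds from 5.98 to 14.0. Foxo6, a forkhead factor, had 3 of 23, the strongest in all 7 libraries with folds from 5.92 to 11.7, and 1 region of the wild-type set as well. Apbb2 had 3 of 58, Septin9 3 of 67, Gcnt3 3 of 7 and Cntnap2, a neurexin-family gene, 3 of 58. Both S_220 libraries of the EF group lacked all 3 members at Gcnt3. The largest group of neighbours held 6 members in 127043 bp from Cdkn1b, the gene of the cell cycle inhibitor p27, past Apold1 and Ddx47 to Gprc5a (chr6:134943656-135070698), 2 of them called in all 7 libraries. That span held 26 regions.

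Camk2b, which encodes a subunit of a calcium and calmodulin kinase, stood apart in shape. Its 4 members lay within 3673 bp and were called in the same 5 libraries, without EF replicates 1 and 3. The folds at 3 of them were 3.08 to 3.79 in every calling library, and 5.90 to 6.35 at the fourth, although 63 to 204 reads stood at the summits. The local background there was 20.7 to 21.8 times the genome background, where the median member had a ratio of 1.63 and 24 of the 1274 members had a ratio above 10. The others of the highest 8 lay at Il34, Serpinh1, Msln and Tubb3, and were named for this ratio after it was seen. The Tubb3 member, the widest of all at 2342 bp, had a ratio of 14.6 and folds from 2.86 to 3.61, in the same 5 libraries.

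**Figure D4:**
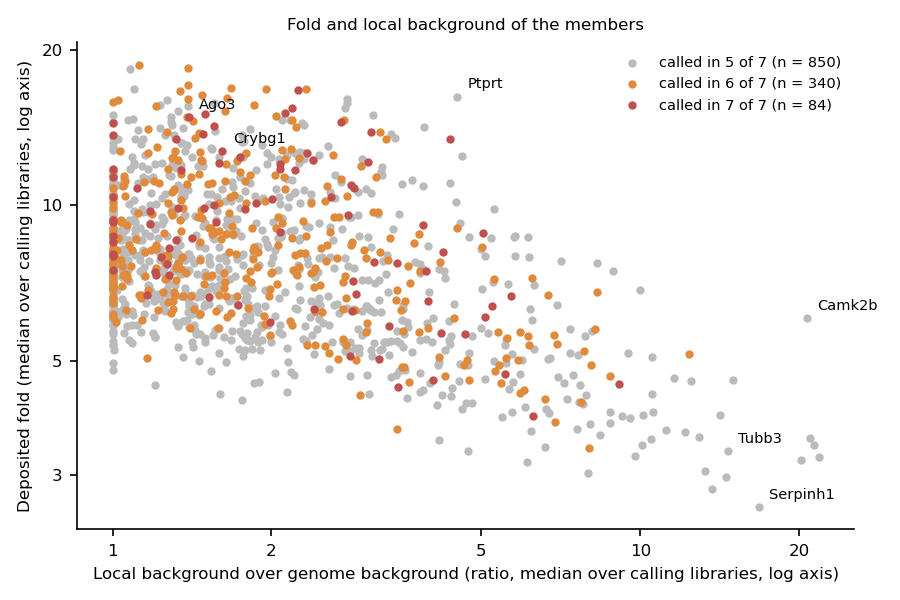
Each point is a member, with the local background at its summit over the genome background of the library (x axis, ratio, log axis) and the deposited fold (y axis, log axis), both as medians over the libraries that called it. The 4 Camk2b members stand at a ratio above 20 and the median member at 1.63.

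The 25 gene lists were set beside the same share over all regions, 0.831%. Over the 507 genes of any list, 68 of 7732 regions were members (0.879%), and the median over lists was 0.728%. Of the EWS::FLI1 targets known from human Ewing sarcoma, 1 gene of 30 had a member, Ccnd1, the cyclin D1 gene, with 2 of the 375 regions of the list (0.533%). Both lay beyond the gene, at 54651 bp and 85798 bp, with folds from 6.63 to 12.2 and from 5.65 to 11.4. The first was missing in EF replicates 2 and 3 and the second in EF replicate 2, and with genes taken within 50 kb the list had 0 members of 318 regions. ETS factors, hedgehog genes, blood cell markers and epithelial markers had 0 members of 322, 223, 185 and 101 regions. Nkx2-2, Igf1, Igf1r, Cdkn2a and Prrx1 had 0 members of 3, 32, 53, 10 and 26 regions, and Nr0b1 had no region at all.

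YAP and TEAD targets had 9 members of 517 regions (1.74%), at 7 of 26 genes. Crim1, a BMP-binding membrane protein, and Amotl1, an angiomotin that holds YAP in the cytoplasm, had 2 each, and Fjx1 and Ajuba 1 each among others. The Amotl1 members had folds from 5.0 to 12.0 and from 5.50 to 6.97 and were missing in EF replicates 2 and 3. The Hippo core had 3 members of 346 regions (0.867%), close to the share over all regions. Of these Frmd6 had 2 and Yap1 1 of its 21 regions, inside the gene (chr9:7965462-7966205). There the fold was 5.32 in EF replicate 2, 7.34 in EF replicate 4, 5.72 and 5.59 in EF_IGF1 and 5.28 in EF_IGF1_xeno, with no call in EF replicates 1 and 3. Reads at the summit were 9 in EF replicate 2, 31 in EF replicate 4, 75 and 92 in EF_IGF1 and 89 in EF_IGF1_xeno. The local background was 7.87 times the genome background as a median over the calling libraries. With folds this close on unlike reads, the local background differed between libraries, which the median hides. The IGF and insulin pathway had 3 of 490 (0.612%), below the share over all regions. Igf2bp1, an RNA-binding protein of Igf2 mRNA, had 2 of them and Irs2, an insulin receptor substrate, 1. An Igf2bp1 member was called in all 7 libraries with folds from 4.55 to 7.22.

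Actin and adhesion adaptors had 15 members of 751 regions (2.00%), at 9 of 26 genes, 7 of them those of Bcar3 and Cobl. These include the member at the start of Gm4610, whose nearest protein-coding gene is Bcar3. Lpp, a zyxin-family adaptor, had 2 and the integrin gene Itga5 1. Posterior HOX genes had 3 of 67 (4.48%), at Hoxb13, Hoxc13 and Hoxb9, which pattern the hind part of the body axis. The Hoxc13 member was called in all 7 libraries with folds from 5.96 to 9.65, and that of Hoxb13 lay 56 bp from the gene with folds from 7.20 to 11.4 in 5 libraries. Adipogenic genes had 4 of 287 (1.39%), at Klf5, Ebf2 and Lep, but 2 of 261 (0.766%) within 50 kb. Osteogenic genes had 2 of 232 (0.862%), at Sp7 and Alpl, and chondrogenic genes 1 of 211 (0.474%), at Col2a1. The remaining lists lay between 0.237% (BMP and TGF-beta, 1 of 422, at Smad6, and 0 of 366 within 50 kb) and 2.06% (muscle markers, 2 of 97, at Myh3 and Acta1). These lists were chosen with earlier results of the data known, and counts this small carry no test.

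By chromosome, members were most frequent on chromosome 15, with 90 members, 1.22 per 100 regions, and least on chromosome 13, with 0.583. Chromosome 15 held 7.06% of the members and 4.82% of all regions. Peaks outside the members were also more frequent there in the EF-carrying libraries, at 5.41% ± 0.437 of a library's peaks (SD, n = 7, range 4.89% to 5.99%) against 4.31% ± 0.292 in the wild-type libraries (n = 5, range 3.90% to 4.57%), and the groups did not overlap (exact permutation test over libraries, two-sided, p = 0.00253, 0.0253 with Benjamini-Hochberg adjustment over 20 chromosomes). Reads at the regions called in all 12 libraries were 1.29 ± 0.0874 times those of the other chromosomes in the EF-carrying libraries (range 1.19 to 1.38) and 1.01 ± 0.0199 times in the wild-type libraries (range 0.983 to 1.03; exact permutation p = 0.00126, the smallest 7 against 5 can give, adjusted 0.0253). EF replicates 1, 3 and 4 stood at 1.19 to 1.21, and EF replicate 2, EF_IGF1 and EF_IGF1_xeno at 1.34 to 1.38.

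Within flowcell BSF_1013 the differences were 1.00 percentage points and 0.291 (exact permutation p = 0.0357 and 0.0179, unadjusted). With flowcell as a block they were 1.05 and 0.280 (exact permutation within flowcells, p = 0.00595 and 0.00298, the latter the smallest this can give), and neither passed after adjustment over the 20 chromosomes (0.0595 for both). Averaged by line, 2 lines against 4, they were 1.12 and 0.276, and the exact p could not go below 0.0667, which both reached. The part of this level in the number of members on chromosome 15 was not tested. Chromosome 9 differed the other way, with 5.17% ± 0.167 of peaks in the EF-carrying libraries (n = 7) and 5.66% ± 0.131 in the wild-type libraries (n = 5; exact permutation p = 0.00126, adjusted 0.0253), and held 57 members, 4.47% of them and 5.44% of all regions. With flowcell as a block the chromosome 9 difference in the share of peaks was -0.50 percentage points (adjusted exact permutation p = 0.0595). The other 18 chromosomes did not pass the adjusted threshold of 0.05 in either measure.

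**Figure D5:**
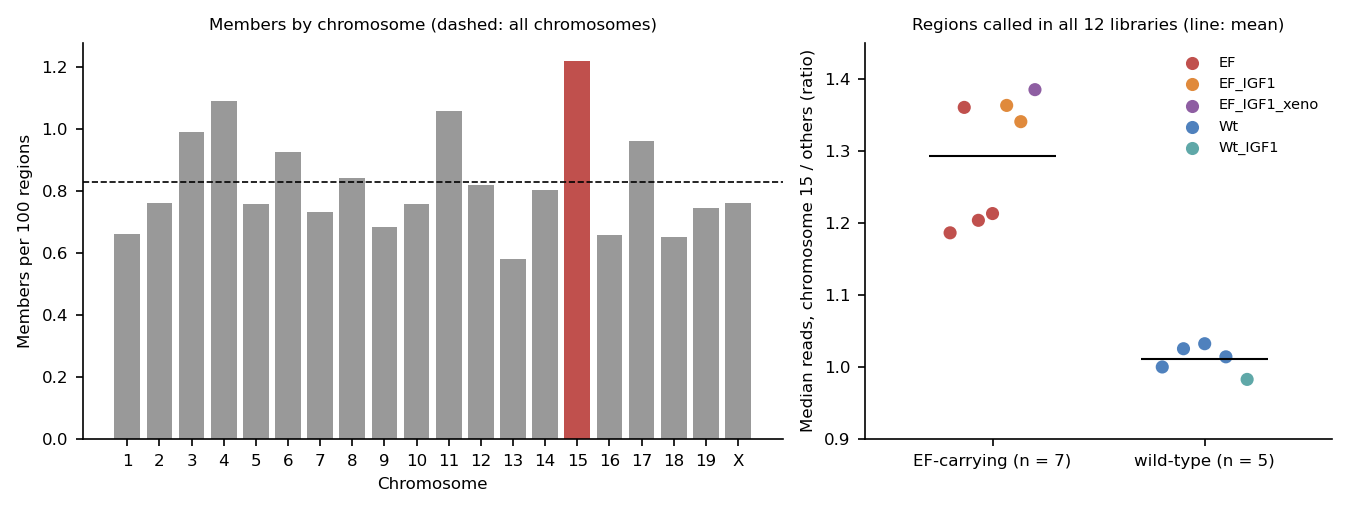
Left, members per 100 regions on each chromosome (bars from 0; the dashed line is the 0.831 over all chromosomes), with chromosome 15 the highest at 1.22. Right, the median reads on chromosome 15 over those on the other chromosomes at the regions called in all 12 libraries, 1 point a library (the y axis starts at 0.9), with the EF-carrying libraries between 1.19 and 1.38 and the wild-type libraries between 0.983 and 1.03.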

How the data were processed

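ATAC-seq libraries of 12 samples were analysed from 1 peak list each. Per the labels' protocols, 20000 to 50000 cells were lysed with digitonin in the transposase reaction and sequenced in 50 bp single-end reads. Per the submitters' processing notes the build is GRCm38.p3 and the tool MACS2; the aligner, read filters, any transposase shift and caller options (not given in the sources used here) stay unknown. Groups came from the genotype label; replicates were numbered in accession order.

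The deposited lists give for each peak a fold (a ratio to local background), the −log10 of the p-value and q-value, a score (the −log10 q times 10) and the summit. These values are the authors' own. They rank and filter peaks within a list; folds of several lists, set side by side, are not scaled between libraries and are not tested. Reads at the summit and local background were solved from fold, (reads + 1) over (background + 1), and the upper Poisson tail, which matched 100% of peaks within 0.001; the solver and the merging were tested on simulated data. The lowest background in a library is its genome background.

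Peaks were merged at 1 bp overlap. Genes came from RefSeq (GRCm38.p6, 21631 protein-coding genes; the patch leaves chromosome coordinates as they were) and start sites from its promoter table, which covers 17274 of these genes and none on chromosome 18. No genome sequence was used, so the planned motif shares at summits were not run, and motifs were counted in the promoter table only. Python 3.11.15, pandas 2.3.3, numpy 2.4.6, scipy 1.17.1 and Biopython 1.88 (global alignment of promoter windows) were used.

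The members and gene lists were chosen with earlier results of these data known. Genes named are the 12 with most members (ties, at 3 members, by the highest −log10 p; unnamed gene models left out), the 15 members called in all 7 EF-carrying libraries with the highest lowest fold, up to 4 genes a list, and 8 genes whatever their values (Ccnd1, Cdkn2a, Igf1, Igf1r, Nkx2-2, Nr0b1, Prrx1, Yap1); promoter members were added when the promoter table was used. Alternatives were stricter or top-ranked peaks, summit windows, an overlap minimum, other numbers of libraries, 1 flowcell, flowcell as a block, and leaving out each library.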

Additional observations from a re-analysis of the deposited data

Results flagged for a closer look

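Of 10 sets of 4 libraries examined, 2 held a library far from the other 3, where chance alone marks about 1 set in 20. The share of regions called by EF replicate 4 when it took no part in the choice was 88.0%, beside 17.9%, 21.3% and 27.8% in the other EF libraries. The sets were unlike, with 1412 to 2197 regions for EF replicate 4 and 3142 to 4812 for the others. Part of this gap is set by the choice, so the rate of 1 in 20 does not apply to it. Without EF replicate 4, with 4 of the other 6 EF-carrying libraries required, 1416 regions were found, and 1272 of them overlapped a member. Members called in at least 5 of 7 libraries meet 4 of any 6, so this overlap was nearly fixed in advance. The ratio of reads on chromosome 15 to those on the other chromosomes was 1.36 in EF replicate 2, and 1.19, 1.20 and 1.21 in EF replicates 1, 3 and 4.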

How the results depend on the processing

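The number of members depended on the libraries required: 424 regions met 6 of 7, 3578 met 4 of 7, and 3439 met at least 4 of 5 and 0 of 3 within flowcell BSF_1013. Leaving out each library in turn, with at least 4 of 6 EF-carrying or 0 of 4 wild-type libraries then required, gave 1275 to 3402 regions; the changes over 1.5 times came without EF replicate 1 (3145), EF replicate 2 (3402), EF replicate 3 (3204) and Wt_IGF1 (2012). The library and the number required changed together, so their parts cannot be told apart. A stricter −log10 q of 5 gave 1255, summit windows of 250 bp 1295, and the overlap minimum 1279, and 88.7%, 96.0% and 99.5% of these overlapped a member. The top 20000 peaks of each list gave 1291 regions, of which 127 (9.84%) overlapped a member. The share near a gene end was then 15.3% and that inside a gene 52.8%; near a gene end it was 3.77% at 6 of 7, 6.72% in BSF_1013, 9.73% within 2.5 kb, and 4.87% to 5.87% with 1 library left out (inside a gene 43.9% to 47.6%). The other settings kept both shares within their intervals.

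Height against the wild-type calling limit moved with the limit and the scale. At the 5th percentile it fell to 81.8% in Wt replicate 3 and 98.0% in Wt replicate 4. Scaled by the regions called in all 12 libraries it was 25.1% in Wt replicate 1 and 98.6% in Wt replicate 3, and with the 5th percentile as well 9.97%, 98.4%, 73.0%, 99.0% and 99.0% in Wt replicates 1 to 4 and Wt_IGF1. The cause was not tested. At 50 kb, 57 members lay at a listed gene, in place of 68. Averaged by line, the chromosome 15 differences were 1.12 percentage points and 0.276, with 2 lines against 4 too few to pass; with flowcell as a block they were 1.05 and 0.280, adjusted exact permutation p = 0.0595 for both. The scaling by shared regions, the start-site choice (4.15% within 1 kb) and the values by flowcell, block and line were added after the data were seen. No paired analysis was possible because replicate numbers follow accession order and no line holds both EF-carrying and wild-type libraries. The files hold no depth, so how far it limits the absent calls is unknown; Wt replicate 1 had the highest genome background (2.29 reads) and the fewest reads at the regions called in all 12 libraries (23).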

Other observations

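Of 81 regions on sequences other than chromosomes 1 to 19 and X, 1 met the rule of the members and 1 the rule turned round. Of the members, 456 (35.8%) were called in every library titled S_220 and 518 (40.7%) in every library titled S_221, where the title of EF_IGF1 replicate 1 could not be checked from the files. All 4 libraries of the EF group called 123 members (9.65%), and both EF_IGF1 libraries with EF_IGF1_xeno called 1086 (85.2%).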
